A study of Mus musculus with 9 samples.

Results

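The TGF-beta and BMP signalling genes are the ligands, receptors, SMAD proteins and extracellular antagonists of the transforming growth factor beta superfamily. They were taken by gene symbol, as protein-coding mouse genes that encode bone morphogenetic proteins (Bmp), growth and differentiation factors (Gdf), activin and inhibin subunits (Inha, Inhb), TGF-beta ligands, their type I, type II and accessory receptors (Bmpr, Acvr, Tgfbr), the SMAD family, and the antagonists Nog, Chrd, Chrdl1, Chrdl2, Grem1, Fst and Bambi, among others. This gave 56 genes of 46517 gene identifiers measured. The choice used gene symbols and no expression value, but it was made with earlier results of these data known. Expression came from bulk RNA sequencing of glioblastoma tissue from mice of a mixed background, with 3 libraries from each of 3 models and 9 libraries in all.

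The 3 models, Synapsin-cre, NG2-creERTM and Nestin-creERT2, stand in the series for different cells of origin, and each carries the name of its Cre driver. The Synapsin promoter is known to be active in neurons. The NG2 promoter, that of Cspg4, is known to be active in oligodendrocyte precursors and pericytes, and the Nestin promoter in neural stem and progenitor cells. The ERTM and ERT2 forms of Cre need tamoxifen to act. The labels give neither the tumour-driving alleles that the models share, nor the age of the mice or the tumour site, and there is no normal tissue in the comparison. They do not say that the libraries of a model came from separate animals, so a p-value here reflects only how far these samples vary, and part of that variation may be technical. In bulk tissue, fewer cells of a type and less RNA per cell cannot be told apart. Nor can sex, as read from the Xist levels given below, be told apart from model between Synapsin-cre and Nestin-creERT2.

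Ligands of this superfamily bind pairs of type I and type II receptor kinases, which phosphorylate receptor-regulated SMADs. BMPs and some GDFs signal mainly through SMAD1, SMAD5 and SMAD9, and TGF-betas, activins and other GDFs such as GDF11 through SMAD2 and SMAD3. Both sets join the common SMAD4 in the nucleus, while SMAD6 and SMAD7 hold the pathway back and noggin, chordin and gremlin proteins trap BMPs outside the cell. In glioblastoma, BMPs are known to push stem-like cells towards astrocytic differentiation, and TGF-beta is known for its part in invasion, blood vessel change and immune suppression.

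Promoters of 3 of the members that the comparisons below turn on are shown for their sequence context, each from 250 bases before to 50 bases after the start in RefSeq annotation on GRCm38.p6. They belong to Gdf10, a ligand (chr14:33923337-33923636, plus strand), Smad9, a receptor-regulated SMAD (chr3:54755332-54755631, plus strand), and Inhbb, an activin subunit (chr1:119422199-119422498, minus strand). Capitals mark GGCGCC, a GC-rich motif that SMADs of the BMP branch are known to bind.
Gdf10: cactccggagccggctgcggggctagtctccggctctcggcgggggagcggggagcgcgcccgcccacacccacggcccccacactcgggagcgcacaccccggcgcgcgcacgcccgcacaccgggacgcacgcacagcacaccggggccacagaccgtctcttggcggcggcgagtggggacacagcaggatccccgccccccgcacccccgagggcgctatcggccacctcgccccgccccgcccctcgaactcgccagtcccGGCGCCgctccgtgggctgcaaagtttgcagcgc
Smad9: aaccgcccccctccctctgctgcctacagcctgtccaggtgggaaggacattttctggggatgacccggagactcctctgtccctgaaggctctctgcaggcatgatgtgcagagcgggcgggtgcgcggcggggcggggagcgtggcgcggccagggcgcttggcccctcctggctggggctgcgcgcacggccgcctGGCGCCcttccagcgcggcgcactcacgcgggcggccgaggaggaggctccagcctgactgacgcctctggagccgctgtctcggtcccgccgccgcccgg
Inhbb: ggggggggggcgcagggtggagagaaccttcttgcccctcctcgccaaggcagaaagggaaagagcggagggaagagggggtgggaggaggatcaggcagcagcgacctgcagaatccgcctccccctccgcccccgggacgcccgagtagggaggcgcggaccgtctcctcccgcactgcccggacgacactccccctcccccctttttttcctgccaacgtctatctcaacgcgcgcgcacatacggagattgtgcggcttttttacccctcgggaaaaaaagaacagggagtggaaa

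The motif GGCGCC, which reads the same on both strands, occurred in the windows of Gdf10 and Smad9 and not in that of Inhbb. Of the 56 members 36 had promoters in the RefSeq table, 43 windows in all, and 10 of these windows (23.3%) held GGCGCC, against 11.9% of all 32851 windows of the same length. Among the 7 BMP-induced target genes with a window, 3 of 7 held it (42.9%). GTCTAGAC, a palindrome of the SMAD-binding element, occurred in 1 member window (2.33%, Smad6) and in 0.213% of all windows. GTCTGTCT, searched on both strands, occurred in 0 member windows and in 1.88% of all windows. The windows shown are GC-rich to differing degrees (77.3% in Gdf10, 73.7% in Smad9 and 64.3% in Inhbb), and a match is a description of the letters only. The windows of Bmpr1b, a receptor gene named beside these members below, are not shown. They held no match to any of these motifs and had 48.3 to 55.7% GC.

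Most of the pathway was present in these tumours. The median over 9 libraries was at least 1 CPM (reads of a gene scaled to a common total of reads in genes, with trimmed mean of M-values size factors) in 41 members, at least 10 CPM in 26 and at least 50 CPM in 10. Of the 56 members 48 had enough counts to be tested, among 17947 genes tested in all. The 8 others were the ligand genes Gdf2, Gdf5, Gdf7, Bmp8b, Bmp10 and Bmp15 and the activin subunits Inhbc and Inhbe, whose highest count in any library was 76. Total counts in genes were 23557398 to 41099967 per library.

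**Figure D1:**
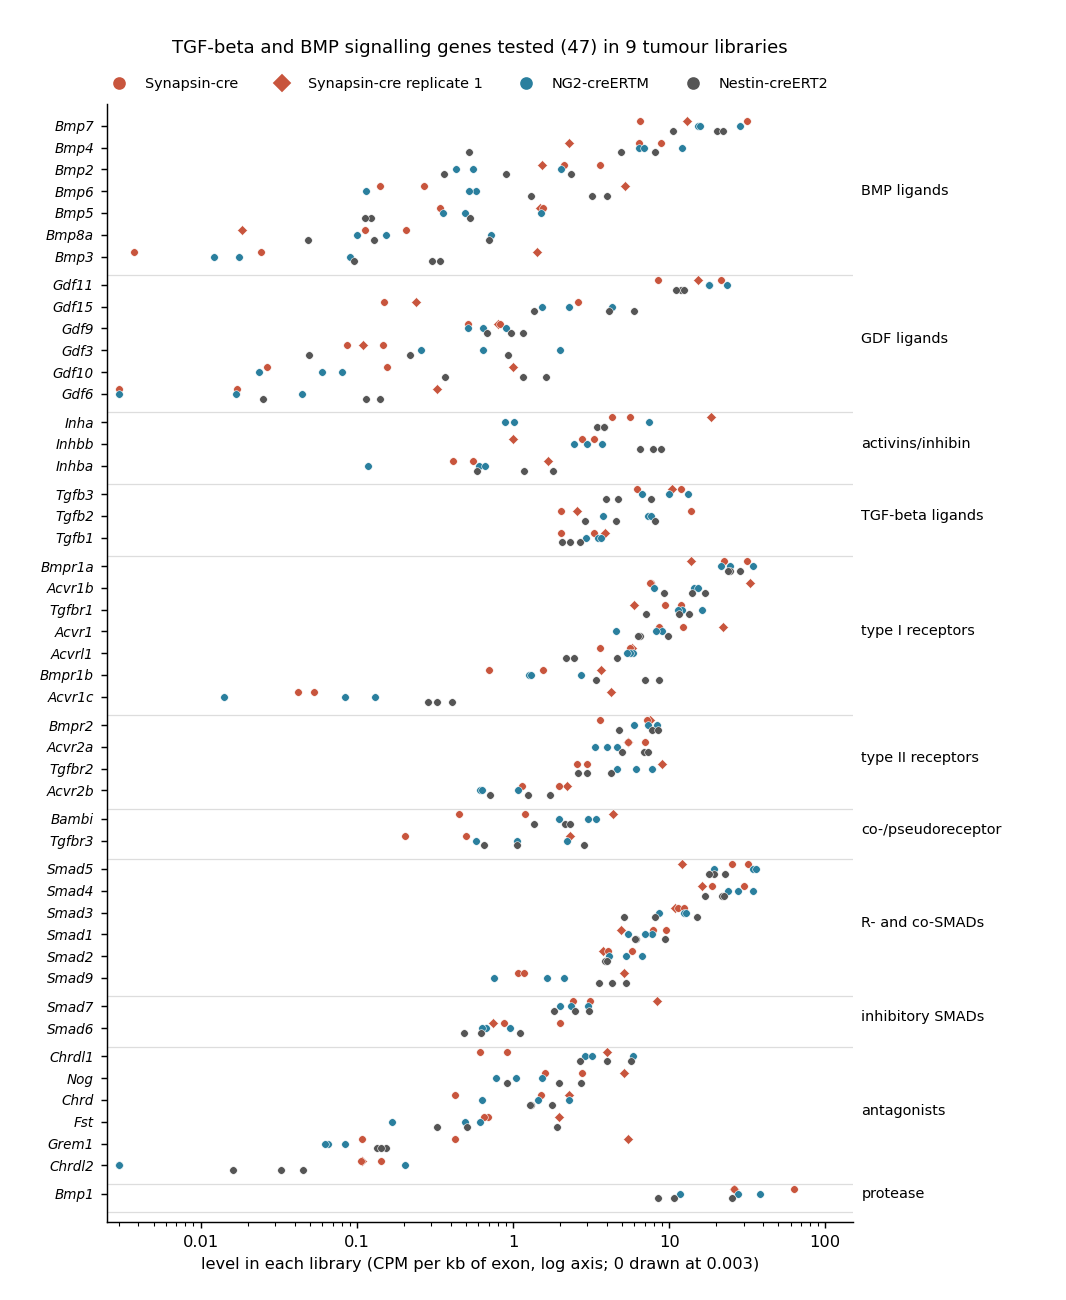
Level of each of 47 of the 48 tested members in each of the 9 libraries, in CPM per kb of exon on a log axis, grouped by role and ordered by median within a role; diamonds are Synapsin-cre replicate 1. Smad4 spans 16.3 to 34.6 CPM per kb and Bmpr1a 13.7 to 34.4, while the points of low members such as Acvr1c (0.0141 to 4.23) spread over a much wider range.

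Levels between genes were compared per kb of exon. The members highest by median level were Bmp1 (26.0 CPM per kb), Bmpr1a (24.4), Smad5 (22.9), Smad4 (22.4), Bmp7 (15.8), Gdf11 (15.2), Acvr1b (14) and Tgfbr1 (11.6). Bmp1 is a metalloprotease that cleaves chordin and procollagen and is not a BMP despite its name. These 8 thus comprised the protease, the ligands BMP7 and GDF11, type I receptors of both branches and the main BMP-branch and common SMADs. Smad4 had the narrowest range of them, with 60.5, 112 and 70.1 CPM in Synapsin-cre tumours, 103, 88.4 and 129 CPM in NG2-creERTM and 80.8, 62.9 and 83.3 CPM in Nestin-creERT2. Bmpr1a, the type I receptor for BMP2 and BMP4, had 87.1, 201 and 143 CPM in Synapsin-cre tumours, 218, 136 and 155 CPM in NG2-creERTM and 180, 155 and 151 CPM in Nestin-creERT2. In Bmpr1a the 3 models overlapped, and in Smad4 the 3 libraries of NG2-creERTM were above the 3 of Nestin-creERT2 while Synapsin-cre overlapped both. Smad5 was likewise present throughout, at 90.0, 188 and 237 CPM in Synapsin-cre tumours, 257, 268 and 143 CPM in NG2-creERTM and 143, 134 and 170 CPM in Nestin-creERT2. Bmp7, Acvr1b and Tgfbr1 were also present in every library: Bmp7, a ligand of kidney, bone and neural development, at 26.3 to 127 CPM, the activin receptor gene Acvr1b at 33.4 to 145 CPM and the TGF-beta type I receptor gene Tgfbr1 at 38.9 to 107 CPM.

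The members differed widely in how much they varied. The highest library was less than 3 times the lowest in 13 of 48 members (27.1%), against 31.4% of all tested genes, and less than 10 times in 30 of 48 (62.5%), against 69.3%. Among members detected in every library, Smad2 was the most even, with a highest level 1.77 times its lowest, and Bmp3, a ligand related to Gdf10, the least even, at 383 times. That ratio is near the floor, as Bmp3 had 1 read in its lowest library, Synapsin-cre replicate 2. Its highest level was 10.6 CPM, in Synapsin-cre replicate 1. Synapsin-cre replicate 1 stood apart from the other 8 libraries. It held the highest level of 16 of the 48 members (33.3%), and of 25.0% of all tested genes. Its 12 mature neuron markers summed to 5379 CPM, while the other 8 had 536 to 2150 CPM, and its markers of dividing cells to 173 CPM, while the other 8 had 1453 to 3275 CPM.

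With all 9 libraries, 0 of the 48 members passed an adjusted p of 0.05 in any of the 3 comparisons between models (edgeR quasi-likelihood test, Benjamini-Hochberg over 17947 genes), and neither did any other gene tested (0% in each). The lowest adjusted p of a member was 0.318 for NG2-creERTM minus Nestin-creERT2, 0.318 for Synapsin-cre minus Nestin-creERT2 and 0.357 for Synapsin-cre minus NG2-creERTM. A test for any difference among the 3 models also called 0 members and 0 genes (0%), with a lowest adjusted p among the members of 0.288. At an unadjusted p under 0.05 it held 4 of 48 members (8.33%), against 13.1% of all genes. In edgeR's quasi-likelihood test their unadjusted values were 0.00465 for Grem1, 0.00838 for Inhbb, 0.0232 for Gdf10 and 0.0236 for Bmpr1b. The spread between libraries of a model was large (biological coefficient of variation 0.612, and 0.503 without Synapsin-cre replicate 1). DESeq2 on the same 9 libraries called 1 member for NG2-creERTM minus Nestin-creERT2 (Gdf10, lower; 3.47% of all genes), 2 for Synapsin-cre minus Nestin-creERT2 (Inhbb lower and Grem1 higher; 2.77%) and 1 for Synapsin-cre minus NG2-creERTM (Grem1, higher; 2.49%), and limma voom called 0.

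Without Synapsin-cre replicate 1 edgeR again called 0 of 50 members, against 0.671%, 1.48% and 0.00541% of genes in the 3 comparisons in the same order. At an unadjusted p under 0.05 it then had 2 members positive (8.11% of all genes) and 9 negative (10.7%) for NG2-creERTM minus Nestin-creERT2. The members numbered 1 positive (9.33%) and 11 negative (12.2%) for Synapsin-cre minus Nestin-creERT2, and 1 positive (5.3%) and 4 negative (6.72%) for Synapsin-cre minus NG2-creERTM. Fits restricted to the libraries of the models compared, with and without that library, are therefore given beside these.

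In NG2-creERTM against Nestin-creERT2 tumours, the members with the smallest p were the ligand gene Gdf10, the activin subunit gene Inhbb, the receptor gene Bmpr1b and Smad9, all with lower levels in NG2-creERTM. In a fit of these 6 libraries alone, Gdf10 was the member that passed, 1 of 46 tested (2.17%), against 237 of 17108 genes (1.39%). The count of genes ran from 1, without Nestin-creERT2 replicate 2, to 244 when a library was left out, and was 8 without Nestin-creERT2 replicate 1, 3 without its replicate 3 and 11 without NG2-creERTM replicate 1. Gdf10 encodes BMP3B, a divergent ligand of the BMP3 group that astrocytes and Bergmann glia are known to express (chr14:33923587-33937983, GRCm38). It had 0.419, 0.314 and 0.124 CPM in NG2-creERTM, against 1.91, 8.47 and 6.05 CPM in Nestin-creERT2. The highest NG2-creERTM library was well under the lowest of Nestin-creERT2, with counts as low as 5 reads. The log2 fold change was -4.26 ± 0.78 (SE, adjusted p = 0.0485, edgeR) in the 6 libraries and -4.25 ± 1.26 (adjusted p = 0.318) in all 9. Leaving out any 1 of the 6 libraries ended the call, with log2 fold changes of -4.67 to -3.80 and adjusted p of 0.0703 to 0.119.

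Inhbb, Bmpr1b and Smad9 were next in size of p among members with a negative fold change. Inhbb encodes the beta B subunit shared by activin B and inhibin B (chr1:119415465-119422248). It had 12.6, 15.9 and 10.4 CPM in NG2-creERTM, against 27.7, 33.5 and 37.6 CPM in Nestin-creERT2, with no overlap. Its log2 fold change was -1.34 ± 0.46 in 9 libraries (adjusted p = 0.364) and -1.35 ± 0.29 in 6 (adjusted p = 0.0603, edgeR). Bmpr1b encodes a type I BMP receptor of neural progenitors and cartilage (chr3:141837136-142169425) and had 7.61, 16.2 and 7.81 CPM in NG2-creERTM, against 20.3, 51.1 and 42.0 CPM in Nestin-creERT2. Here too the 2 models did not overlap, and the log2 fold change was -1.84 ± 0.65 in 9 libraries (adjusted p = 0.367, edgeR). Smad9, the BMP-branch SMAD gene with the lowest median level per kb (chr3:54755582-54801257), had 8.87, 4.05 and 11.4 CPM in NG2-creERTM, against 23.0, 19.2 and 28.5 CPM in Nestin-creERT2. The groups were again apart, with a log2 fold change of -1.54 ± 0.67 (adjusted p = 0.434, edgeR, 9 libraries).

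**Figure D2:**
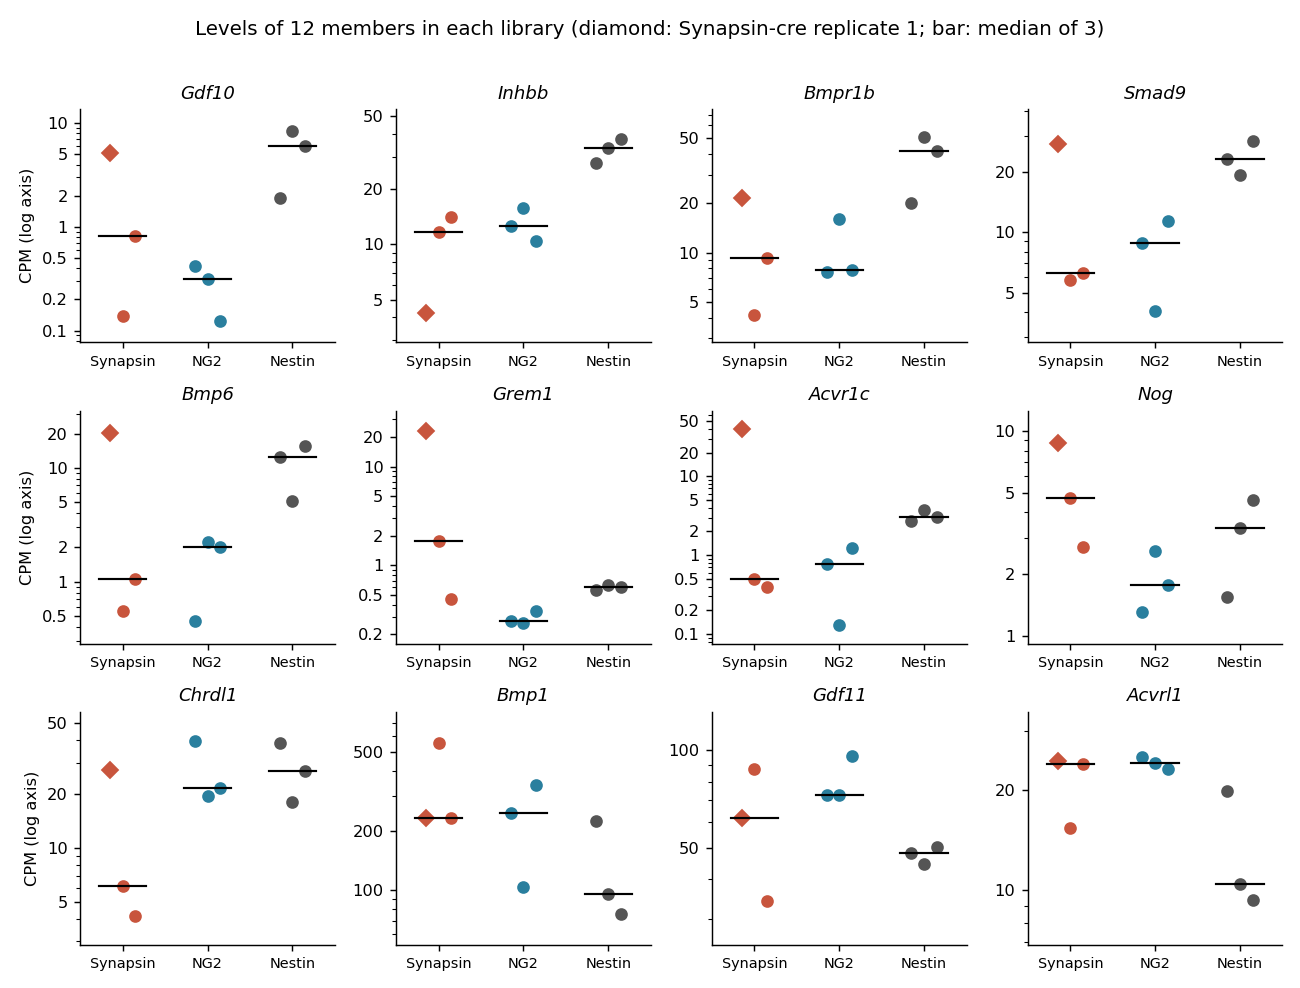
CPM of 12 members in each library on log axes, with Synapsin-cre left, NG2-creERTM in the middle and Nestin-creERT2 right; points are libraries, the diamond is Synapsin-cre replicate 1 and the bar is the median of 3. In Inhbb all 6 points of Synapsin-cre and NG2-creERTM (4.24 to 15.9 CPM) lie below the 3 of Nestin-creERT2 (27.7 to 37.6 CPM), and in Gdf10, Bmp6, Grem1 and Acvr1c the diamond lies far above the other Synapsin-cre points.

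In this comparison 5 of 48 members had an unadjusted p under 0.05 and a negative fold change (10.4%, against 5.73% of all genes), the fifth being the activin type II receptor gene Acvr2a. With a positive fold change it was 0 of 48, against 5.53% of all genes. The members' median log2 fold change was -0.03, beside 0.02 over all genes, with 22 members positive (45.8%, against 50.9% of all genes) and 26 negative. NG2-creERTM lay wholly below Nestin-creERT2 in 10 of 48 members (20.8%, against 14.2% of all genes) and wholly above it in 6 (12.5%, against 11% of all genes). The 4 members with the smallest p among positive fold changes were Acvrl1, Gdf11, Tgfb3 and Tgfbr2. Acvrl1, the endothelial type I receptor ALK1, had 25.1, 24.1 and 23.1 CPM in NG2-creERTM, against 19.8, 10.5 and 9.38 CPM in Nestin-creERT2 (log2 fold change 0.87 ± 0.39, adjusted p = 0.449, edgeR). Gdf11, a ligand close to myostatin that signals through SMAD2 and SMAD3, had 73.0, 72.8 and 96 CPM in NG2-creERTM, against 48.2, 44.7 and 50.3 CPM in Nestin-creERT2 (0.76 ± 0.35, adjusted p = 0.457, edgeR). Neither gene overlapped between the models. Tgfbr2, the TGF-beta type II receptor, had 37.9, 50.3 and 64.0 CPM in NG2-creERTM, against 34.9, 21.2 and 24.2 CPM in Nestin-creERT2 (0.92 ± 0.50, adjusted p = 0.530, edgeR), also apart. Tgfb3 had 34.0, 44.4 and 22.7 CPM in NG2-creERTM, against 25.7, 16 and 13.4 CPM in Nestin-creERT2, where the models overlapped (0.87 ± 0.41, adjusted p = 0.468, edgeR).

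Sums of cell type markers also differed between these libraries, without overlap in each list given here but the endothelial one. The 12 mature neuron markers summed to 536 to 901 CPM in NG2-creERTM, against 1707 to 2150 CPM in Nestin-creERT2, with 11 of 12 lower without overlap. The 10 astrocyte markers summed to 1657 to 4075 CPM in NG2-creERTM, against 4647 to 6726 CPM in Nestin-creERT2, with 4 of 10 lower and 1 higher without overlap. The 10 endothelial markers summed to 193 to 405 CPM in NG2-creERTM, against 121 to 219 CPM in Nestin-creERT2. These sums overlapped, and 4 of 10 markers were higher without overlap. The 10 pericyte and smooth muscle markers summed to 498 to 980 CPM in NG2-creERTM, against 160 to 202 CPM in Nestin-creERT2, with 5 of 10 higher without overlap. The 12 Schwann cell and neural crest markers summed to 1646 to 5485 CPM in NG2-creERTM, against 283 to 856 CPM in Nestin-creERT2, with 8 of 12 higher without overlap. The 8 markers of myelinating oligodendrocytes summed to 2119 to 6206 CPM in NG2-creERTM, against 595 to 1537 CPM in Nestin-creERT2, with 3 of 8 higher and 1 lower without overlap. None of these markers was at 0 in any library, and their part in the differences of Gdf10, Inhbb, Bmpr1b, Smad9, Acvrl1, Gdf11, Tgfb3 and Tgfbr2 was not tested.

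**Figure D3:**
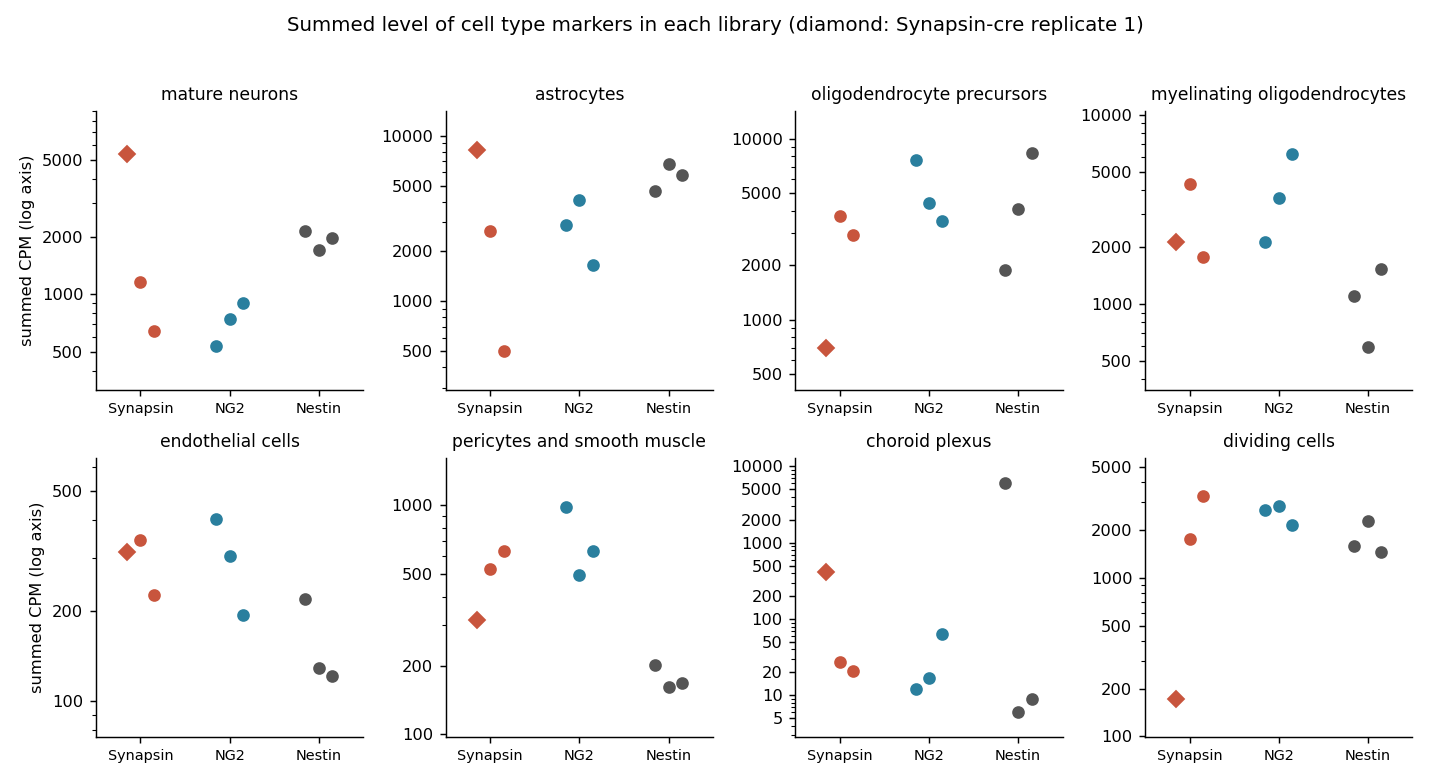
Summed CPM of 8 lists of cell type markers in each library on log axes, with Synapsin-cre left, NG2-creERTM in the middle and Nestin-creERT2 right. Neuron and astrocyte sums are lower in the 3 NG2-creERTM libraries than in the 3 of Nestin-creERT2, pericyte sums are higher, and the diamond (Synapsin-cre replicate 1) is highest for neurons at 5379 CPM and lowest for dividing cells at 173 CPM.

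Synapsin-cre against Nestin-creERT2 tumours had Inhbb, Bmpr1b, Gdf15 and Chrdl1 as the negative members with the smallest p and Grem1, Bmp5, Bmp1 and Acvr1 as the positive ones, none past the threshold with 9 libraries. At an unadjusted p under 0.05 there were 3 of 48 members positive (6.25%, against 6.74% of all genes) and 2 of 48 negative (4.17%, against 4.05% of all genes). The members' median log2 fold change was 0.22, beside 0.13 over all genes, with 29 positive (60.4%, against 57.8% of all genes) and 19 negative. This lean did not hold in other fits. The median was 0.03 without Synapsin-cre replicate 1, beside 0.01, with 25 members positive (against 9336 of 18481 genes) and 25 negative. In limma voom it was -0.11, beside -0.02, with 23 positive (against 8760 of 17947 genes) and 25 negative. The fit of these 6 libraries alone called 0 members and 5 genes (0.0291%). Inhbb had 4.24, 11.7 and 14.1 CPM in Synapsin-cre, against the 27.7 to 37.6 CPM of Nestin-creERT2. It was the member whose 3 Synapsin-cre libraries all lay below the 3 of Nestin-creERT2, 1 of 48 (2.08%, against 6.29% of all genes). Its log2 fold change was -1.72 ± 0.47 (adjusted p = 0.318, edgeR), and -1.36 ± 0.34 without Synapsin-cre replicate 1 in the fit of the other 8 (adjusted p = 0.0730). Bmpr1b had 21.7, 4.16 and 9.23 CPM in Synapsin-cre, so that replicate 1 overlapped the 20.3 CPM of Nestin-creERT2 replicate 1 and replicates 2 and 3 lay below all of that model. Its log2 fold change was -1.69 ± 0.64 (adjusted p = 0.417, edgeR), and -2.51 ± 0.60 without Synapsin-cre replicate 1 (adjusted p = 0.0664).

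The fold changes of the positive members moved with the library left out. Grem1, an antagonist of BMP2 and BMP4 (chr2:113746164-113758646), had 22.7, 1.76 and 0.451 CPM in Synapsin-cre, against 0.558, 0.637 and 0.595 CPM in Nestin-creERT2. Replicate 1 carried the difference and replicate 3 lay below all 3 Nestin-creERT2 libraries. The log2 fold change of Grem1 was 3.79 ± 1.23 in 9 libraries (adjusted p = 0.360, edgeR) and 0.89 ± 0.68 without Synapsin-cre replicate 1 (adjusted p = 0.475). Bmp1 had 231, 556 and 231 CPM in Synapsin-cre, against 225, 95.1 and 75.8 CPM in Nestin-creERT2. The 3 Synapsin-cre libraries were above the 3 of Nestin-creERT2, narrowly so over Nestin-creERT2 replicate 1, with a log2 fold change of 1.36 ± 0.59 (adjusted p = 0.457, edgeR) and 1.57 without Synapsin-cre replicate 1. It was 0.75 without Synapsin-cre replicate 2 (adjusted p = 0.750, edgeR) and 1.96 without Nestin-creERT2 replicate 1 (adjusted p = 0.502). Bmp5, a ligand of cartilage and neural development, had 5.97, 6.31 and 1.38 CPM in Synapsin-cre, against 2.14, 0.498 and 0.452 CPM in Nestin-creERT2, with overlap (2.14 ± 0.92, adjusted p = 0.454, edgeR; 3.20 without Nestin-creERT2 replicate 1). Acvr1, the type I receptor ALK2 whose activating mutations occur in human midline glioma, had 106, 59.2 and 41.7 CPM in Synapsin-cre, against 47.4, 31.3 and 30.6 CPM in Nestin-creERT2, also with overlap (0.92 ± 0.42, adjusted p = 0.471, edgeR; 0.46 without Synapsin-cre replicate 1). Members wholly above Nestin-creERT2 numbered 3 of 48 (6.25%, against 8.44% of all genes), namely Bmp1, the inhibin alpha subunit Inha and the low antagonist Chrdl2.

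Without Synapsin-cre replicate 1 a set of members lay lower in the other 2 Synapsin-cre libraries. In the fit of these 5 libraries, 2 of 48 members passed (4.17%), both lower, against 431 of 17797 genes (2.42%). That count was 23 to 279 when a further library was left out, namely 264 and 108 without Synapsin-cre replicates 2 and 3 and 279, 23 and 49 without Nestin-creERT2 replicates 1, 2 and 3. Among the members that passed was Bmp6. Bmp6, a BMP ligand known for its control of iron metabolism (chr13:38345107-38500302), had 20.2, 0.551 and 1.05 CPM in Synapsin-cre, against 12.6, 5.09 and 15.7 CPM in Nestin-creERT2. Replicate 1 was the highest library and replicates 2 and 3 were below all of Nestin-creERT2. Its log2 fold change was -3.79 ± 0.73 in the 5 libraries (adjusted p = 0.0498, edgeR) and -0.61 ± 1.2 in all 9 (adjusted p = 0.888). Leaving out any 1 more of the 5 libraries ended the call of Bmp6 (log2 fold changes -4.31 to -3.41, adjusted p 0.0720 to 0.134).

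Bmp6 had 0.449, 2.25 and 2.03 CPM in NG2-creERTM, against 12.6, 5.09 and 15.7 CPM in Nestin-creERT2. The NG2-creERTM values were below all 3 of Nestin-creERT2 and near those of Synapsin-cre replicates 2 and 3. Bmp6 did not pass there in the 6 libraries (log2 fold change -2.82 ± 0.72, adjusted p = 0.0829, edgeR). Without Synapsin-cre replicate 1, Synapsin-cre lay wholly below Nestin-creERT2 in 14 of 50 members (28%, against 20.9% of all genes) and wholly above it in 5 (10%, against 19.4%). Mature neuron markers in those 2 libraries summed to 1155 and 644 CPM and astrocyte markers to 2655 and 503 CPM, against 1707 to 2150 CPM and 4647 to 6726 CPM in Nestin-creERT2. Synapsin-cre replicate 1 had 8191 CPM of astrocyte markers. The 8 choroid plexus markers summed to 6069 CPM in Nestin-creERT2 replicate 1 and to 6.09 to 413 CPM elsewhere. The 413 CPM were in Synapsin-cre replicate 1, where Aqp1 alone had 407 CPM and Ttr 1.33 CPM. The part of all these markers in the values of Bmp6 and Grem1 was not tested.

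**Figure D4:**
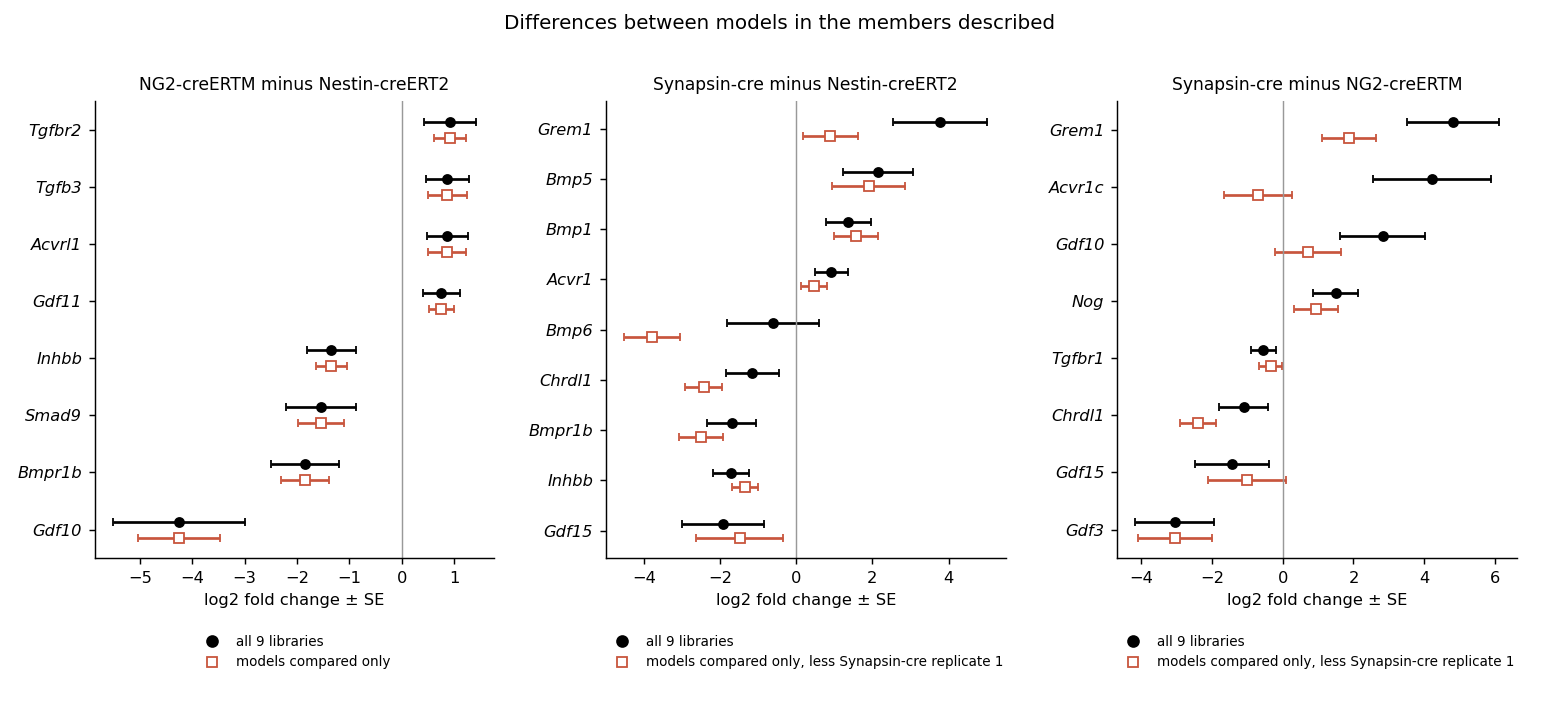
Log2 fold change (bars, SE) of the members described for each comparison, with filled circles for the fit of all 9 libraries and open squares for the fit of only the models compared, less Synapsin-cre replicate 1 where Synapsin-cre is in the comparison. Circles and squares coincide for NG2-creERTM minus Nestin-creERT2, while Bmp6 in Synapsin-cre minus Nestin-creERT2 is at -0.61 with all libraries and -3.79 without Synapsin-cre replicate 1, and Acvr1c changes sign.

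Synapsin-cre against NG2-creERTM tumours had Grem1, Acvr1c, Gdf10 and Nog as the positive members with the smallest p, and Gdf3, Chrdl1, Tgfbr1 and Gdf15 as the negative ones. Over the 48 members the median log2 fold change was 0.10, beside 0.08 over all genes, with 26 positive (54.2%, against 54.6% of all genes) and 22 negative. It changed sign without Synapsin-cre replicate 1, to -0.14, beside -0.01 over all genes. Of 50 members 19 were then positive (against 9143 of 18481 genes) and 31 negative. Fits of these models alone called 0 members, with 0 genes (0%) in all 6 libraries and 1 gene (0.00566%) less Synapsin-cre replicate 1. Unadjusted p was under 0.05 in 6 of 48 members with a positive fold change (12.5%, against 8.81% of all genes) and in 1 with a negative one (2.08%, against 4%). Grem1 had 22.7, 1.76 and 0.451 CPM in Synapsin-cre, against 0.270, 0.261 and 0.347 CPM in NG2-creERTM, and so lay higher in every Synapsin-cre library (log2 fold change 4.81 ± 1.3, adjusted p = 0.357, edgeR). Without replicate 1 the value was 1.91 ± 0.69. Nog, which encodes the BMP trap noggin, had 8.75, 4.69 and 2.70 CPM in Synapsin-cre, against 1.32, 2.59 and 1.79 CPM in NG2-creERTM, also without overlap (1.5 ± 0.64, adjusted p = 0.380, edgeR; 0.97 without replicate 1). Acvr1c, the receptor ALK7, had 39.3, 0.496 and 0.391 CPM in Synapsin-cre, against 0.779, 0.131 and 1.21 CPM in NG2-creERTM. Only replicate 1 was above all of NG2-creERTM, and the log2 fold change of 4.23 ± 1.67 (adjusted p = 0.364, edgeR) became -0.68 without it. Gdf10 likewise had 5.21, 0.138 and 0.811 CPM in Synapsin-cre, against 0.419, 0.314 and 0.124 CPM in NG2-creERTM, with overlap, and its log2 fold change of 2.83 ± 1.2 (adjusted p = 0.377, edgeR) became 0.72 without replicate 1.

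On the negative side, Gdf3 had 0.265, 0.358 and 0.210 CPM in Synapsin-cre, against 0.629, 4.84 and 1.56 CPM in NG2-creERTM. This ligand of pluripotent and early embryonic cells was the member wholly lower in Synapsin-cre, 1 of 48 (2.08%, against 5.74% of all genes), with a log2 fold change of -3.06 ± 1.12 (adjusted p = 0.357, edgeR) that was -1.97 without NG2-creERTM replicate 2 (adjusted p = 0.553). Members wholly higher numbered 5 of 48 (10.4%, against 8.03% of all genes), namely Grem1, Nog, Fst, Acvr2a and Acvr2b. Chrdl1, which encodes the BMP antagonist chordin-like 1 and is known to be secreted by astrocytes (chrX:143285674-143394262), had 27.2, 6.15 and 4.18 CPM in Synapsin-cre tumours, 39.7, 19.5 and 21.7 CPM in NG2-creERTM and 38.5, 18.1 and 26.9 CPM in Nestin-creERT2. Synapsin-cre replicates 2 and 3 lay below the other 6 libraries and replicate 1 within them. The log2 fold change of Synapsin-cre minus Nestin-creERT2 was -1.16 ± 0.69 (adjusted p = 0.584, edgeR), and -2.44 ± 0.51 without replicate 1 (adjusted p = 0.0528). That of Synapsin-cre minus NG2-creERTM was -1.11 ± 0.69 (adjusted p = 0.520, edgeR), and -2.39 without replicate 1 (adjusted p = 0.243). Chrdl1 is on the X chromosome, and Xist, which is expressed from an inactive X, was at 1.02 to 1.28 CPM in Synapsin-cre, at 0.988, 1320 and 1.26 CPM in NG2-creERTM and at 777 to 1808 CPM in Nestin-creERT2. Sex, as read from Xist, thus cannot be told apart from model between Synapsin-cre and Nestin-creERT2, for Chrdl1 or any other member. Of the NG2-creERTM libraries only replicate 2 had high Xist, as Nestin-creERT2 had. The part of sex in the values of Chrdl1 and the other members was not tested. Gdf15, a stress-induced ligand, had 0.442, 0.276 and 4.81 CPM in Synapsin-cre tumours, 4.25, 2.85 and 7.96 CPM in NG2-creERTM and 11, 2.52 and 7.62 CPM in Nestin-creERT2, with overlap throughout. Its log2 fold change was -1.93 ± 1.07 for Synapsin-cre minus Nestin-creERT2 (adjusted p = 0.550, edgeR), and -4.36 without Synapsin-cre replicate 3 (adjusted p = 0.308). For Synapsin-cre minus NG2-creERTM it was -1.44 ± 1.06 (adjusted p = 0.590, edgeR), -3.86 without that library (adjusted p = 0.180), and -0.95 without Synapsin-cre replicate 2 or NG2-creERTM replicate 3. Tgfbr1 had 38.9, 77.7 and 61.1 CPM in Synapsin-cre, against 107, 78.7 and 74.9 CPM in NG2-creERTM, where the groups overlapped (-0.55 ± 0.35, adjusted p = 0.530, edgeR).

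The make-up of each class showed which member prevailed, as a share of the class's summed CPM per kb in the same library. With 3 libraries against 3, an exact 2-sided permutation test cannot go below p = 0.1, so these shares are given as values only. Among type I receptors Bmpr1a made up 15.6 to 46.6% in Synapsin-cre, 34.6 to 42.3% in NG2-creERTM and 35.4 to 40.1% in Nestin-creERT2, and was the largest share in 8 of 9 libraries. In Synapsin-cre replicate 1 the activin receptor gene Acvr1b was larger, at 37.2%. Bmpr1b made up 1.03 to 4.14% in Synapsin-cre, 1.57 to 4.38% in NG2-creERTM and 4.81 to 13.5% in Nestin-creERT2, where all 3 shares were above the other 6. Acvrl1 made up 5.33 to 10.2% in Synapsin-cre, 7.24 to 9.18% in NG2-creERTM and 3.28 to 6.58% in Nestin-creERT2.

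Among the BMP-branch SMADs, Smad5 was the largest in every library. Smad9 made up 2.86 to 23.2% in Synapsin-cre, 1.69 to 7.47% in NG2-creERTM and 12.9 to 15.5% in Nestin-creERT2, with the 23.2% in Synapsin-cre replicate 1. The summed level of this class was 22.2 to 40.9 CPM per kb in Synapsin-cre, 28.4 to 44.6 in NG2-creERTM and 27.7 to 34.3 in Nestin-creERT2, and so overlapped among the models. Smad3 exceeded Smad2 in every library, with 66.2 to 75.3% of their sum in Synapsin-cre, 56.4 to 75.5% in NG2-creERTM and 56.9 to 79.2% in Nestin-creERT2.

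Among the antagonists, Chrdl1 made up 14 to 19.9% of their sum in the 3 Synapsin-cre libraries, 44.1 to 61.9% in NG2-creERTM and 31.6 to 53.1% in Nestin-creERT2, with the 19.9% in Synapsin-cre replicate 1. Nog made up 25.6 to 45.1% in Synapsin-cre, 8.18 to 23.3% in NG2-creERTM and 8.56 to 28.8% in Nestin-creERT2. The Chrdl1 shares of Synapsin-cre thus lay below the other 6 libraries, and the Nog shares lay above those of NG2-creERTM and overlapped Nestin-creERT2. In Synapsin-cre replicate 1 the level of Chrdl1 itself (27.2 CPM) lay within those of the other 6, and Grem1 made up 27.1% of the sum. The summed level of the antagonists was 3.54 to 20.2 CPM per kb in Synapsin-cre, 5.74 to 9.51 in NG2-creERTM and 8.48 to 10.7 in Nestin-creERT2. Among ligands, Bmp7 made up 41.1 to 68.6% of BMP ligands in Synapsin-cre, 48.8 to 78.6% in NG2-creERTM and 56.1 to 74.2% in Nestin-creERT2. Gdf11 made up 68.8 to 94.8% of GDF ligands in Synapsin-cre, 77.4 to 83.9% in NG2-creERTM and 58.6 to 67.2% in Nestin-creERT2, and all 3 Nestin-creERT2 shares were below the other 6.

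**Figure D5:**
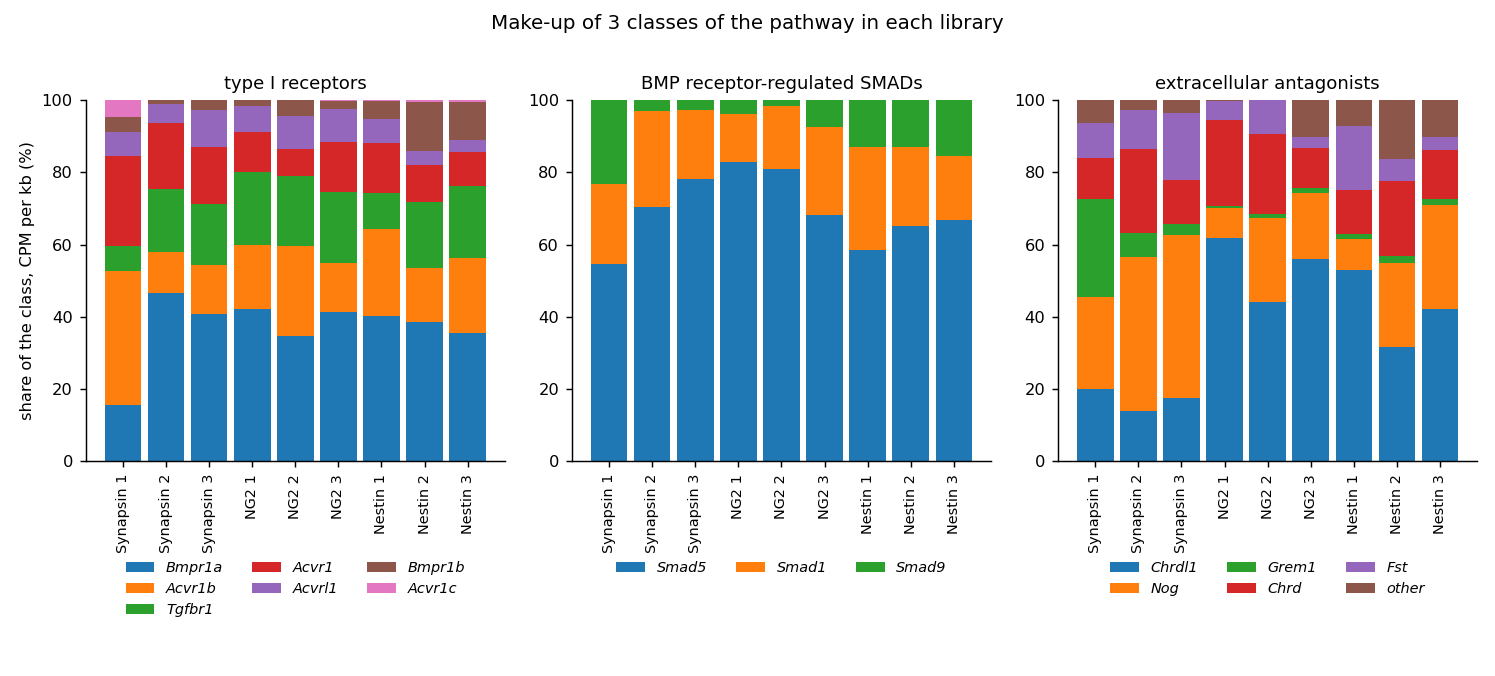
Share of each gene in its class's summed CPM per kb (stacked bars, percent) in the 9 libraries, for type I receptors, BMP receptor-regulated SMADs and extracellular antagonists, where the remaining members are summed as other. Chrdl1 makes up 14 to 19.9% of the antagonists in the Synapsin-cre bars and 31.6 to 61.9% in the other 6, and Smad9 makes up 12.9 to 15.5% of its class in the Nestin-creERT2 bars.

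Among roles with more than 1 tested member, the medians farthest from 0 with all 9 libraries were those of the antagonists and the activin subunits. The order changed without Synapsin-cre replicate 1. The co-receptor and pseudoreceptor were then at -1.83 for Synapsin-cre minus NG2-creERTM and -1.69 for Synapsin-cre minus Nestin-creERT2. The GDF ligands were at -1.62 for Synapsin-cre minus Nestin-creERT2. The 7 antagonists had a median log2 fold change of 1.39 for Synapsin-cre minus NG2-creERTM (5 positive, 2 negative), beside 0.08 over all genes, and of -0.74 for NG2-creERTM minus Nestin-creERT2 (1 positive, 6 negative), beside 0.02. Without Synapsin-cre replicate 1 these medians were 0.67 (4 positive, 3 negative), beside -0.01 over all genes, and -0.75. The 3 activin and inhibin subunits tested, Inha, Inhba and Inhbb, were at -1.34 for NG2-creERTM minus Nestin-creERT2, with all 3 negative (-1.35 without Synapsin-cre replicate 1). The 3 TGF-beta ligands were positive in NG2-creERTM minus Nestin-creERT2 (median 0.52) and in Synapsin-cre minus Nestin-creERT2 (median 0.39), and without Synapsin-cre replicate 1 the medians were 0.51 and 0.60. The 2 comparisons share the Nestin-creERT2 libraries. Tgfb1, the main TGF-beta of immune regulation, had 17.8, 18.4 and 14.9 CPM in NG2-creERTM, against 13.6, 11.7 and 10.4 CPM in Nestin-creERT2, without overlap and with an adjusted p of 0.634 (edgeR). Microglia and macrophage markers summed to 371 to 499 CPM in NG2-creERTM, against 515 to 550 CPM in Nestin-creERT2, and their part was not tested. Its levels in Synapsin-cre were 19.7, 10.3 and 16.7 CPM and overlapped Nestin-creERT2. The inhibitory SMAD gene Smad7, itself a target of the pathway, had 38.0, 14.1 and 10.9 CPM in Synapsin-cre tumours, 13.6, 10.6 and 9.10 CPM in NG2-creERTM and 13.9, 8.25 and 11.2 CPM in Nestin-creERT2, with replicate 1 of Synapsin-cre highest.

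Genes around the pathway were described from 7 lists of known targets and regulators, and with 9 libraries 0 of their members passed in any comparison by edgeR. Of 9 tested BMP-induced target genes, 2 were positive (against 50.9% of all genes) and 7 negative in NG2-creERTM minus Nestin-creERT2. Their median log2 fold change was -0.31, beside 0.02 over all genes, with an unadjusted p under 0.05 in 1, negative (against 5.73%, edgeR). In Synapsin-cre minus Nestin-creERT2 4 were positive (against 57.8%) and 5 negative (median -0.34, beside 0.13), with an unadjusted p under 0.05 in 1, positive (against 6.74%). In Synapsin-cre minus NG2-creERTM 5 were positive (against 54.6%) and 4 negative (median 0.02, beside 0.08). There 1 was at that p in each direction (against 8.81% higher and 4% lower). Id1, an inhibitor of differentiation and a direct BMP target, had 12.1, 14.8 and 39.6 CPM in Synapsin-cre tumours, 21.0, 25.3 and 19.5 CPM in NG2-creERTM and 47.0, 35.9 and 30.9 CPM in Nestin-creERT2. It was chosen after its values were seen, and its levels in NG2-creERTM were wholly below those of Nestin-creERT2 (log2 fold change -0.79 ± 0.46, adjusted p = 0.562, edgeR). Id4, related to it, had 24.4, 31.8 and 12.8 CPM in Synapsin-cre tumours, 4.37, 52.6 and 12.8 CPM in NG2-creERTM and 25.0, 86.7 and 112 CPM in Nestin-creERT2. Dlx5 was high in Synapsin-cre replicate 1 alone, at 51.4 CPM, while the other 8 libraries had 0.332 to 2.81 CPM.

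Of 11 TGF-beta-induced target genes, 7 were positive (against 50.9% of all genes) and 4 negative in NG2-creERTM minus Nestin-creERT2. Their median was 0.62, beside 0.02 over all genes, with 2 positive at an unadjusted p under 0.05 (against 5.53%, edgeR). In Synapsin-cre minus Nestin-creERT2 6 were positive (against 57.8%) and 5 negative. The median there was 0.12, beside 0.13, with 3 positive at that p (against 6.74%). In Synapsin-cre minus NG2-creERTM 4 were positive (against 54.6%) and 7 negative. The median there was -0.34, beside 0.08, with 1 negative at that p (against 4%). Col1a1, a fibrillar collagen chain that is also a fibroblast marker, had 18.7, 37.3 and 51.7 CPM in Synapsin-cre tumours, 480, 30.8 and 68.1 CPM in NG2-creERTM and 5.49, 1.44 and 2.83 CPM in Nestin-creERT2. All 6 libraries of the first 2 models were above the 3 of Nestin-creERT2. In the fit of Synapsin-cre replicates 2 and 3 against Nestin-creERT2, Col1a1 rose by 3.77 ± 0.58 on the log2 scale (adjusted p = 0.0323, edgeR). With all 9 libraries its adjusted p was 0.329, and the call was also lost when a further library other than Nestin-creERT2 replicate 1 was left out (0.0616 to 0.0953). Tgfbi, a matrix protein named for its induction by TGF-beta, had 76.6, 91.0 and 98.8 CPM in Synapsin-cre tumours, 24.4, 97.4 and 67.3 CPM in NG2-creERTM and 34.9, 18.2 and 4.21 CPM in Nestin-creERT2. Synapsin-cre was wholly above Nestin-creERT2, and NG2-creERTM overlapped it. Fibroblast and meningeal markers, a list that includes Col1a1 and Pdgfra, summed to 355 to 1587 CPM in Synapsin-cre tumours. Their sums were 1229 to 3347 CPM in NG2-creERTM and 472 to 2094 CPM in Nestin-creERT2. Pdgfra, also a marker of oligodendrocyte precursors, held most of the Nestin-creERT2 sums, at 313, 941 and 2022 CPM. Of 11 markers tested, 9 were positive and 2 negative against Nestin-creERT2 in each of the other models. Without overlap, 5 were higher in NG2-creERTM (against 11% of all genes) and 4 in Synapsin-cre (against 8.44%). The part of these markers in the values of Col1a1 and Tgfbi was not tested.

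The remaining lists had the following counts at an unadjusted p under 0.05 in edgeR's quasi-likelihood test, where all genes had 5.53% higher and 5.73% lower in NG2-creERTM minus Nestin-creERT2, 6.74% and 4.05% in Synapsin-cre minus Nestin-creERT2, and 8.81% and 4% in Synapsin-cre minus NG2-creERTM. Of 8 other ligands and receptors of the superfamily, 2 were higher and 0 lower in the first comparison, 4 and 0 in the second, and 2 and 2 in the third, with median log2 fold changes of 1.40, 1.79 and 0.46. Without Synapsin-cre replicate 1 these medians were 1.40, 1.12 and 0.39. The counts were then 3 higher and 0 lower in the first comparison, 1 and 0 in the second, and 0 and 3 in the third. All genes in that fit had 8.11% higher and 10.7% lower, 9.33% and 12.2%, and 5.3% and 6.72%. Of 5 co-receptors, 0 were higher and 2 lower in the first comparison, 1 and 2 in the second, and 1 and 0 in the third. Of 16 other extracellular modulators, 2 were higher and 1 lower in the first comparison, 1 and 3 in the second, and 1 and 3 in the third. Of 9 latency and activation genes, 1 was higher in the second comparison and 0 in the others, and 0 were lower. Less Synapsin-cre replicate 1, this list had 2 higher and 1 lower in the second comparison, and 0 higher and 1 lower in the third.

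Among the ligands and co-receptors outside the 56 genes, the widest contrast was in Mstn. It encodes myostatin, a brake on muscle growth and the closest relative of GDF11, and had 9.94, 155 and 67.7 CPM in NG2-creERTM, against 0.558, 0.831 and 4.26 CPM in Nestin-creERT2. In Synapsin-cre it had 0, 1.38 and 0.571 CPM. The 3 NG2-creERTM libraries were above the other 6, but with 9 libraries it did not pass (log2 fold change 5.36 for NG2-creERTM minus Nestin-creERT2, adjusted p = 0.304, edgeR). Gdnf, a distant member of the superfamily that signals through RET, had 2.96, 33.2 and 32.8 CPM in Synapsin-cre tumours, 24, 5.07 and 34.8 CPM in NG2-creERTM and 2.11, 0.388 and 1.5 CPM in Nestin-creERT2. It too was above Nestin-creERT2 in all 6 libraries, and rose in Synapsin-cre without replicate 1 by 4.62 ± 0.69 (adjusted p = 0.0303, edgeR; 0.318 with 9 libraries). In that fit Tdgf1, the Nodal co-receptor Cripto, and Nbl1, a DAN-family antagonist, fell by 5.50 and 3.16 on the log2 scale (adjusted p = 0.0322 and 0.0176, edgeR; 0.491 and 0.399 with 9 libraries). Each of these calls was lost when a further library was left out, that of Gdnf (0.0627 to 0.0812) and that of Tdgf1 (0.0624 to 0.116) except without Nestin-creERT2 replicate 1 (0.0383 and 0.0456), and that of Nbl1 without Synapsin-cre replicate 3 and Nestin-creERT2 replicates 2 and 3 (0.0547 to 0.0650). Nbl1 had 48.1, 11.3 and 9.62 CPM in Synapsin-cre, against 103, 71.6 and 105 CPM in Nestin-creERT2. Tdgf1 had 0.795, 0.0276 and 0.0300 CPM in Synapsin-cre, against 1.73, 1.61 and 1.02 CPM in Nestin-creERT2.

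Rgmb, a BMP co-receptor of the repulsive guidance family, had 66.2, 38.3 and 49.4 CPM in Synapsin-cre tumours, 17.2, 10.8 and 15.9 CPM in NG2-creERTM and 12.1, 26.9 and 13.2 CPM in Nestin-creERT2. All 3 Synapsin-cre libraries, replicates 2 and 3 included, lay above the other 6 (unadjusted p among the 3 models 0.00231). Bmper, a secreted BMP modulator, had 6.50, 4.41 and 3.37 CPM in Synapsin-cre tumours, 10.2, 12.3 and 9.69 CPM in NG2-creERTM and 25.3, 12.7 and 20.7 CPM in Nestin-creERT2, so that the 3 models did not overlap (p among the 3 models 0.00359). Cer1, an antagonist of Nodal and BMP, stayed between 0 and 1.66 CPM. The intracellular regulators were the most even list, with medians of 0.07, 0.10 and 0.07 in the 3 comparisons in the order given above and 0 of 10 at an unadjusted p under 0.05. Their member with the smallest p, the ubiquitin ligase gene Nedd4l, had 128 CPM in Synapsin-cre replicate 1, while the other 8 had 20.4 to 39.5 CPM. The second, the SMAD corepressor gene Ski, had 152 to 228 CPM in Synapsin-cre tumours, 105 to 205 CPM in NG2-creERTM and 87.8 to 157 CPM in Nestin-creERT2. Of the latency list, Ltbp1, which tethers latent TGF-beta to matrix, had 42.2, 278 and 32.2 CPM in Synapsin-cre tumours, 15.6, 16.5 and 115 CPM in NG2-creERTM and 26.7, 7.48 and 7.26 CPM in Nestin-creERT2, and Lrrc32, which holds it on cells, stayed between 1.5 and 11.3 CPM.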

How the data were processed

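Total RNA from the tumours was sequenced after extraction with a Qiagen kit, per the labels' protocols. Each deposited table gives read counts by gene, and the submitters' processing notes name STAR, HTSeq and mm10 with no versions given in the sources used here. Of the 3 count columns, that of the strand with most reads was used (the other strand held 3.25 to 3.64%), so antisense neighbours were counted apart. The 4 summary lines, 17.9 to 27.3% of reads, were left out. GENCODE vM21 on GRCm38 named 46005 of 46517 identifiers.

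Counts were filtered with filterByExpr and fitted in edgeR 4.0.16 (R 4.3.3) by the quasi-likelihood test with the 3 models of 9 libraries as groups, 2-sided, with Benjamini-Hochberg adjustment over all genes tested and a threshold of 0.05. The SE of each edgeR log2 fold change was computed from the test, as its absolute value divided by the square root of the F statistic. CPM were computed from the deposited counts with TMM size factors. Alternatives were DESeq2 1.42.0, limma 3.58.1 voom, other size factors, filters, the unstranded counts, fits of 2 models, and fits without each library. The fit was also run on simulated counts, and the outcome of that run is not given here. Replicates were numbered in accession order.

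The members, roles, gene lists and tests were chosen with earlier results of these data known. Named were members that passed with 9 libraries or in fits of 2 models, the 4 of smallest p in each direction of each comparison, the 8 of highest level per kb, and of each list outside the 56 genes those that passed or the 2 of smallest p among the 3 models. Other genes named with values were chosen after these were seen, and Bmp6, Col1a1, Gdnf, Nbl1 and Tdgf1 were named because they passed without Synapsin-cre replicate 1. Values of 1 member are not reported here. Promoters came from RefSeq on GRCm38.p6, and no protein sequences were used here.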

Additional observations from a re-analysis of the deposited data

How the results depend on the processing

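No paired analysis was possible because the labels give the models no shared replicate numbers. With 9 libraries 0 genes and 0 members passed in every comparison, and this held with relative log expression scaling, with genes kept at 1 CPM in 3 libraries, and in voom. Without a filter 12, 12 and 0 genes passed for NG2-creERTM minus Nestin-creERT2, Synapsin-cre minus Nestin-creERT2 and Synapsin-cre minus NG2-creERTM, and 23 for any difference among the 3 models, with 0 members. The unstranded counts gave 1 gene, for Synapsin-cre minus Nestin-creERT2. DESeq2 called 623, 497, 446 and 868 genes in that order, with 1 member (Gdf10, adjusted p = 0.00681), 2 (Inhbb 0.0198 and Grem1 0.0241), 1 (Grem1 0.00322) and 3. Fits of 2 models called 237 genes and 1 member for NG2-creERTM minus Nestin-creERT2 and 5 genes for Synapsin-cre minus Nestin-creERT2. Less Synapsin-cre replicate 1, the fits of 2 models called 431 genes and 2 members for Synapsin-cre minus Nestin-creERT2 and 1 gene for Synapsin-cre minus NG2-creERTM.

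Leaving out each library in turn gave 0 to 124 genes for NG2-creERTM minus Nestin-creERT2, 0 to 273 for Synapsin-cre minus Nestin-creERT2, 0 to 1 for Synapsin-cre minus NG2-creERTM and 0 to 346 among the 3 models, and 0 members throughout. The upper values are those without Synapsin-cre replicate 1, and the other exceptions, 1 or 2 genes, came without NG2-creERTM replicate 2 or 3. Of 398 alternative values of the 24 named member results, 391 kept direction and stayed uncalled, 5 kept direction and were called, and 2 reversed. Both reversals were of Acvr1c in Synapsin-cre minus NG2-creERTM, at -0.71 in the fit of 2 models less Synapsin-cre replicate 1 and -0.68 without that library, beside 4.23 with all libraries and up to 4.86 when another library was left out. The fits of 2 models that left out a further library were added after seeing the data. Low members such as Gdf10 rest on counts down to 5 reads. The causes of these changes with the tool, the libraries and the filter were not tested.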
